A study of Homo sapiens with 6 samples.

Results

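FKBP5, FKBP4 and 8 genes of the HSP90 chaperone machinery were examined in C4-2 cells after perturbation of the Polycomb methyltransferase EZH2. The genes were chosen by name, with earlier results of these data known: FKBP5, FKBP4, HSP90AA1, HSP90AB1, PTGES3, STIP1, AHSA1, CDC37, DNAJA1 and BAG1. All 10 were found once each among the 28503 names of the expression table, and all 10 passed the filter of 1 FPKM in at least 1 column, which kept 12921 names. C4-2, a prostate cancer cell line that descends from LNCaP, was used at passages 10 to 15. Cells were treated with GSK126, an inhibitor of the catalytic activity of EZH2, with astemizole, an antihistamine reported to disturb the binding of EZH2 to its partner EED, or with vehicle as the control of both. Other cells received lentivirus with 1 of 2 EZH2 shRNAs, or with a scramble shRNA as their control. Each condition was 1 library of polyadenylated RNA, and the 2 EZH2 hairpins share 1 column of authors' values, called the knockdown below. No dose, time or replicate is given in the sources used here, so the differences have no replicate check, and neither a test nor an SD can be given.

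Steroid receptors do not fold into a hormone-binding state alone. An HSP40 and HSP70 pair takes up the new receptor, STIP1 (HOP) hands it to an HSP90 dimer, and PTGES3 (p23) holds the closed, mature complex, in which an immunophilin such as FKBP4 (FKBP52) or FKBP5 (FKBP51) sits on HSP90. FKBP5 is also induced by steroid hormones, among them androgen, glucocorticoid and progesterone, and in prostate cells it is a widely used readout of the androgen response. FKBP4 favours the activity of several steroid receptors, while FKBP5 restrains the glucocorticoid receptor.

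The promoter windows of the members were compared first, because several of the chaperone genes are known targets of the heat shock factor HSF1. RefSeq windows on GRCh38.p14, reaching from 250 bases before to 50 bases after an annotated transcript start, were at hand for 9 of the 10 genes (15 windows), the exception being FKBP4. A heat shock element of 3 units, spelled GAANNTTCNNGAA and searched on both strands, was found in 3 of the 15 windows and in 0.490% of all 35116 windows. These 3 windows belonged to HSP90AA1 and HSP90AB1, which encode the inducible and the constitutive cytosolic HSP90, and to DNAJA1, an HSP40 that stimulates the ATPase of HSP70. The exact spelling was in no window of FKBP5 or of the other 5 members examined, and elements with mismatches were not searched. The stretches that hold it are shown 5′ to 3′ on the gene's strand, with the elements in capitals. They lie at chr14:102087100-102087152 (minus strand), chr6:44247758-44247863 (plus strand) and chr9:33025256-33025308 (plus strand).
HSP90AA1: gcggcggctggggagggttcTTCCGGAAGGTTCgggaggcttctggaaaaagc
HSP90AB1: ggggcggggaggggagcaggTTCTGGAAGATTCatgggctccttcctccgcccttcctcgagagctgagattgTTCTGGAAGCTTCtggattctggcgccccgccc
DNAJA1: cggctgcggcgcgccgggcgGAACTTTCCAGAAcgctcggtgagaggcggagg

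The HSP90AA1 element began 88 bases before the annotated start. HSP90AB1 carried a pair of elements, beginning 165 and 112 bases before the start of 1 of its 3 windows. The DNAJA1 element began 3 bases after the start. A second motif, the full androgen and glucocorticoid response element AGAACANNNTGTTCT, was in 0 of the 15 windows and in 1 of all 35116 windows (0.00285%). The motif is so rare that its absence from 15 windows tells nothing about the members. Its 6-base arm AGAACA was in 4 of the 15 windows, which belonged to FKBP5, HSP90AB1 and AHSA1 (overlapping windows in AHSA1), and in 14.8% of all windows. The HSP90AB1 arm overlapped its second heat shock element. FKBP5 had windows at 2 starts: the first held the arm, in capitals below, at the annotated start (chr6:35728558-35728603, minus strand), and the second held none of the motifs (chr6:35688866-35689165, minus strand). Matches are letters in a window and do not show binding. Only exact spellings inside these windows were searched, so a missing match does not show that a gene lacks such elements.
FKBP5, first start: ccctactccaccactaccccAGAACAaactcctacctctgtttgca
FKBP5, second start: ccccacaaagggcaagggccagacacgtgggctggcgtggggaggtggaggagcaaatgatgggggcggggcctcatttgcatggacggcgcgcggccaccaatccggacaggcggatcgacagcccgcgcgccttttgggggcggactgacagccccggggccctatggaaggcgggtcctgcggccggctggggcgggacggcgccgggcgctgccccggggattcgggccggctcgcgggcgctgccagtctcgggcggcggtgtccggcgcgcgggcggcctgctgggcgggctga

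**Figure D1:**
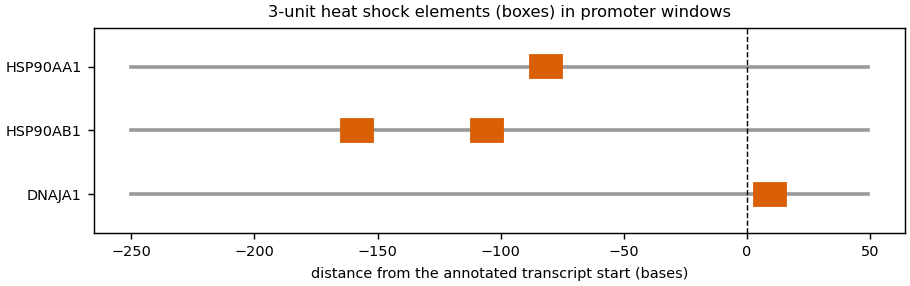
Position of the 3-unit heat shock elements (boxes) in the promoter windows of HSP90AA1, HSP90AB1 and DNAJA1; the horizontal axis is the distance in bases from the annotated transcript start (dashed line). HSP90AB1 has 2 boxes upstream, HSP90AA1 has 1 upstream, and that of DNAJA1 begins 3 bases after the start.

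The columns were checked before the members were read. EZH2 stood at 17.5 FPKM with GSK126, 9.48 with astemizole and 26.5 with vehicle, and at 3.35 in the knockdown against 24.6 with scramble shRNA. All 8 luminal prostate markers were at 111 FPKM or more in every column, basal markers summed to at most 4.67 FPKM, neuroendocrine markers to 4.65 in the knockdown (almost all of it SYP, at 4.63 FPKM against 0.510 with scramble shRNA) and to at most 0.886 elsewhere, fibroblast markers to at most 2.51 and blood cell markers to at most 7.65, the last with GSK126. The 11 liver markers, which do not belong in this line, summed to 187 FPKM with GSK126, 5.69 with astemizole, 21.8 with vehicle, 3.27 in the knockdown and 2.09 with scramble shRNA; with GSK126 10 of the 11 stood at 1 FPKM or more and none at 0, with vehicle 6 stood at 1 or more and none at 0, and APOA2, APOH, FGB and FGG were at 0 with astemizole and with scramble shRNA. Their part in the comparisons with vehicle was not tested, and values against the other control column are given where they change a sign or a 2-fold count. Read totals are not in the table. The spacing of low values, read as the commonest ratio, puts 1 read at 0.949 (GSK126), 1.05 (astemizole) and 0.857 (scramble shRNA) times its vehicle value, which would make these depths similar. The commonest ratio held 247 genes with GSK126 (157 in the next window) and 178 with scramble shRNA (98). It stood out less with astemizole, at 158 genes against 119, so that depth is less sure. For the knockdown the commonest ratio was 0.455 but hardly stood out (61 genes, against 49 in the next window), so the depth behind that column is not known. FPKM is a share of a library: in these bulk samples fewer cells of a type and less RNA per cell cannot be told apart.

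FKBP5 was low with astemizole and in the knockdown and was not low with GSK126. Its level was 67.2 FPKM with GSK126, 18.6 with astemizole and 64.1 with vehicle, and 16.4 in the knockdown against 91.5 with scramble shRNA. The column order, from high to low, was scramble shRNA, GSK126, vehicle, astemizole and knockdown, with a 5.59-fold span, the widest of the 10 genes. The upper 3 and the lower 2 columns lie far apart, but without replicates it cannot be said whether neighbours within either set differ. Among the 12921 genes ranked by level, FKBP5 was 1380th with GSK126, 4375th with astemizole and 1673rd with vehicle, and 4758th in the knockdown against 1013th with scramble shRNA.

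The other immunophilin, FKBP4, had a different order. It stood at 128 FPKM with GSK126, 102 with astemizole and 182 with vehicle, and at 216 in the knockdown against 167 with scramble shRNA. Its highest value was thus in the knockdown, the column in which FKBP5 was lowest. The ratio of FKBP5 to FKBP4 within a column, which does not depend on how columns were scaled, was 0.524 with GSK126, 0.182 with astemizole and 0.352 with vehicle, and 0.0757 in the knockdown against 0.547 with scramble shRNA. The 2 control columns themselves differed in this ratio, at 0.547 with scramble shRNA and 0.352 with vehicle; that of GSK126 lay between them, and those of astemizole and the knockdown lay below both.

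HSP90AA1 and HSP90AB1 were the most abundant members in every column, between the 72nd and 109th of all genes by level. HSP90AA1 was at 1094 FPKM with GSK126, 918 with astemizole and 1573 with vehicle, and at 1571 in the knockdown against 1513 with scramble shRNA. HSP90AB1 was at 1126 FPKM with GSK126, 902 with astemizole and 1454 with vehicle, and at 1250 in the knockdown against 1459 with scramble shRNA. Both were lowest with astemizole and next lowest with GSK126. The ratio of HSP90AB1 to HSP90AA1 stayed between 0.924 and 1.03 in 4 columns and was 0.796 in the knockdown. Processed copies of HSP90, PTGES3 and DNAJA1 exist in the genome and reads could be split with them. Of such copies only HSP90AB4P, HSP90B2P and DNAJA1P5 were looked up, and they stood at 0.110 FPKM or less. Other copies, among them those of PTGES3, were not examined.

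Among the cochaperones that act on HSP90 directly, PTGES3, which stabilises the closed complex, was at 285 FPKM with GSK126, 204 with astemizole and 424 with vehicle, and at 288 in the knockdown against 346 with scramble shRNA. STIP1, the adaptor between HSP70 and HSP90, was at 168 FPKM with GSK126, 138 with astemizole and 213 with vehicle, and at 224 in the knockdown against 230 with scramble shRNA. AHSA1, the activator of the HSP90 ATPase, was at 146 FPKM with GSK126, 108 with astemizole and 197 with vehicle, and at 213 in the knockdown against 187 with scramble shRNA. These 3 genes shared the low values with both drugs, astemizole lowest, and had no common direction in the knockdown. CDC37, which brings kinases more than receptors to HSP90, was at 113 FPKM with GSK126, 104 with astemizole and 142 with vehicle, and at 106 in the knockdown against 129 with scramble shRNA.

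On the HSP70 side, DNAJA1 was at 239 FPKM with GSK126, 208 with astemizole and 300.2 with vehicle, and at 376 in the knockdown against 275 with scramble shRNA. BAG1, a nucleotide exchange factor of HSP70, was the least abundant chaperone member, at 25.6 FPKM with GSK126, 35.0 with astemizole and 32.9 with vehicle, and at 31.2 in the knockdown against 28.9 with scramble shRNA. BAG1 was the member whose astemizole value was not the lowest or next to lowest of the 5 columns. Its span over the columns was 1.37-fold and that of CDC37 1.36-fold, the narrowest of the 10.

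**Figure D2:**
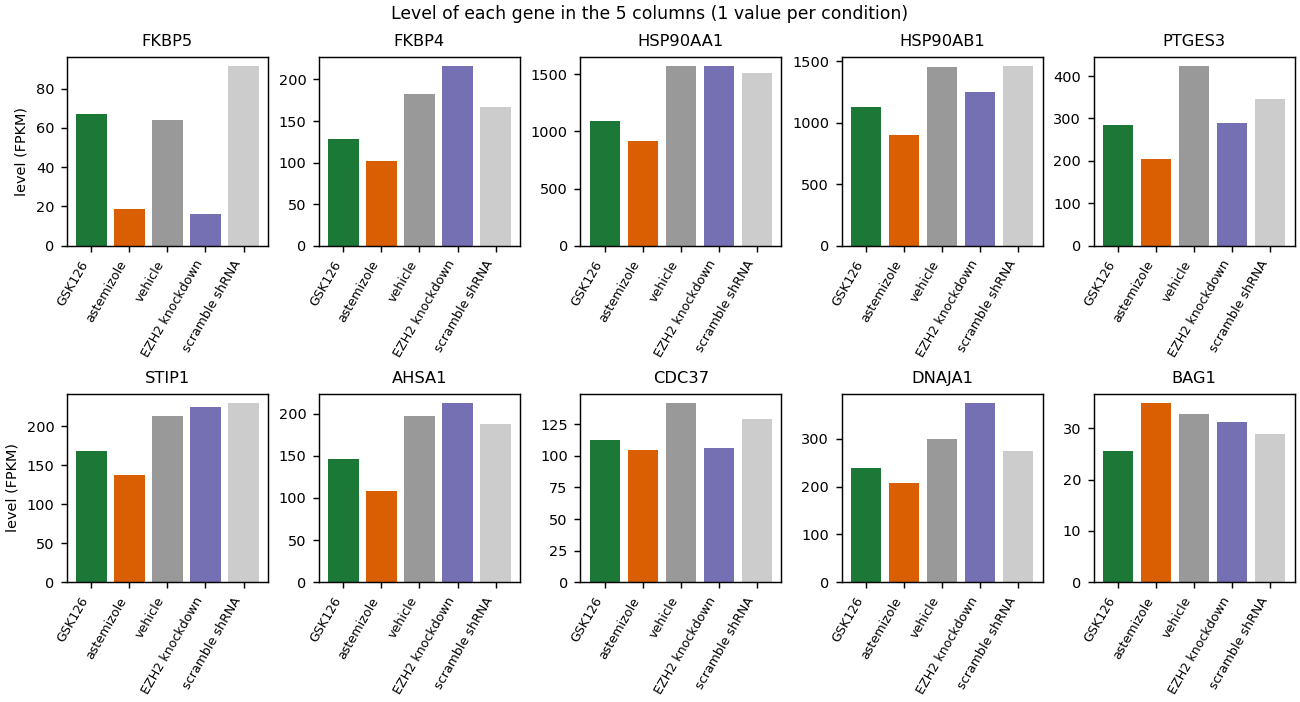
Level in FPKM (vertical axes, each from 0) of the 10 genes in the 5 columns, 1 bar per condition, with no error bars because each condition has 1 value. FKBP5 has 2 short bars, astemizole at 18.6 and the knockdown at 16.4 FPKM, while the tallest bar of FKBP4 is the knockdown at 216 FPKM.

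**Figure D3:**
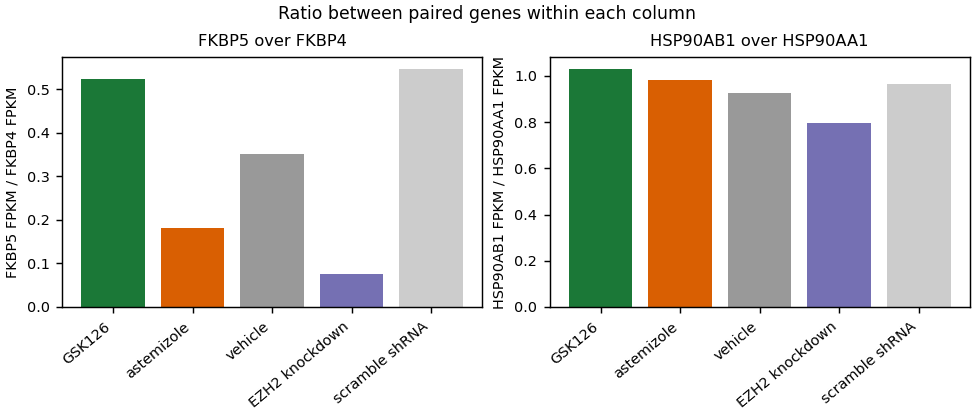
Ratio of FKBP5 to FKBP4 (left) and of HSP90AB1 to HSP90AA1 (right) within each column, from FPKM values, with no error bars because each condition has 1 value. The left ratio ranges between 0.0757 in the knockdown and 0.547 with scramble shRNA, and the right one between 0.796 and 1.03.

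Ratios to the matched control were computed as log2 of FPKM + 1 over FPKM + 1 and read against all 12921 genes. A gene was counted at 2-fold or more.

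With GSK126, all 9 genes other than FKBP5 were lower than with vehicle, by modest amounts. Of the 10 members 0 were at 2-fold or more, against 2.00% of all genes (1.05% higher and 0.952% lower), and 9 had a ratio below 0, against 54.3% of all genes. Among genes that reached 10 FPKM in any column, as all 10 members did, 64.0% were below 0 and the median was -0.12. The 9 stood at 67.2% to 79.7% of their vehicle level, with a median log2 ratio of -0.37 and a range of -0.57 to -0.33, where the median of all genes was -0.04. PTGES3 was lowest at -0.57, a value under which 6.83% of all genes lay, followed by HSP90AA1 at -0.52 and FKBP4 at -0.50. FKBP5 had 0.07. Rescaling each column to the same total (TPM) moved the median of all genes by 0.19, to 0.15; the 9 chaperones then had -0.36 to -0.11 and FKBP5 0.28. Against the scramble column the 9 had -0.47 to -0.17 and FKBP5 turned to -0.44, so its direction with GSK126 depends on the control.

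With astemizole, 8 of the 9 chaperones and FKBP5 were lower than with vehicle. At least 2-fold lower were 2 of the 10, FKBP5 at -1.73 and PTGES3 at -1.05, against 5.49% of all genes, and 0 were 2-fold higher, against 3.53%. Ratios below 0 were found for 9 of the 10, against 55.3% of all genes and 60.3% of those that reached 10 FPKM in any column. FKBP5 stood at 29.1% of its vehicle level, and 1.80% of all genes had a lower ratio. AHSA1 (-0.86), FKBP4 (-0.83), HSP90AA1 (-0.78), HSP90AB1 (-0.69) and STIP1 (-0.63) followed PTGES3, then DNAJA1 (-0.53) and CDC37 (-0.44); BAG1 had 0.09. The median of the 10 was -0.73 and that of all genes -0.06. Relative to that median, or against the scramble column, PTGES3 was just or well short of 2-fold, at -0.99 and -0.76, and FKBP5 had -1.67 and -2.24.

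In the knockdown FKBP5 parted from the chaperones. It was 1 of 10 members at least 2-fold lower, against 5.11% of all genes, with 0 at least 2-fold higher, against 1.93%. FKBP5 stood at 17.9% of its scramble level, a log2 ratio of -2.41, and 1.02% of all genes had a lower one. The 9 chaperones had ratios between -0.28 and 0.45, with a median of 0.05 where all genes had 0.03, and 4 of them were below 0; of all 10 members 5 were, against 47.1% of all genes. DNAJA1 (0.45) and FKBP4 (0.37) were at the upper end, AHSA1 had 0.18, BAG1 0.11, HSP90AA1 0.05 and STIP1 -0.04. CDC37 (-0.28), PTGES3 (-0.26) and HSP90AB1 (-0.22) were at the lower end. With vehicle as the control FKBP5 had -1.91, DNAJA1 0.32, FKBP4 0.25, AHSA1 0.11, PTGES3 -0.55, CDC37 -0.42 and HSP90AB1 -0.22, while HSP90AA1, STIP1 and BAG1 changed sign, to -0.0022, 0.07 and -0.07.

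The 2 control columns give a scale for these differences. Scramble shRNA over vehicle gave FKBP5 0.51, a ratio above that of 98.0% of all genes, and gave the 9 chaperones -0.29 to 0.11, with PTGES3 lowest, where the median of all genes was -0.11. None of the 10 was at 2-fold or more, against 1.02% of all genes. With each comparison centred on its median of all genes, that chaperone range was -0.19 to 0.22. In the knockdown, centred likewise, FKBP4 and DNAJA1 lay above it, HSP90AB1, PTGES3 and CDC37 below it and the other 4 within it. Against vehicle, all 9 lay below it with GSK126 (-0.54 to -0.29) and all but BAG1 did with astemizole. With scramble shRNA as the control of GSK126 and no centring, PTGES3 (-0.28), DNAJA1 (-0.20), CDC37 (-0.19) and BAG1 (-0.17) lay inside the range of -0.29 to 0.11. The median of all genes was 0.05 there and -0.11 between the control columns, so with centring these genes also lie below the centred range. The drug comparisons share the vehicle column, so their likeness is not independent.

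**Figure D4:**
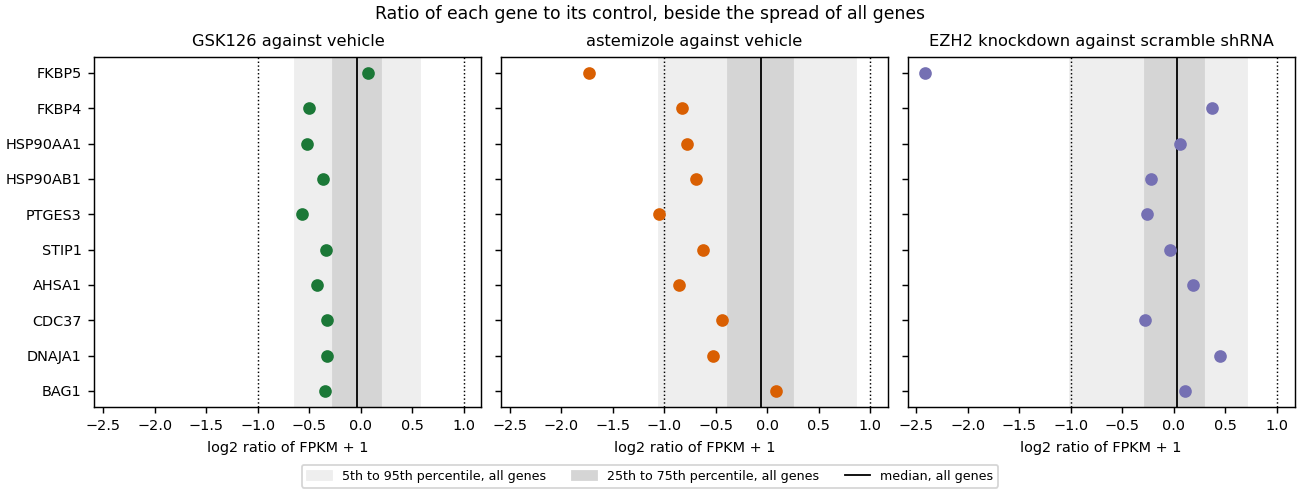
Log2 ratio of FPKM + 1 (horizontal axis) of each of the 10 genes in GSK126 against vehicle, astemizole against vehicle and the knockdown against scramble shRNA; grey bands give the 5th to 95th and 25th to 75th percentiles of all 12921 genes, the black line their median, and dotted lines 2-fold. FKBP5 is the point at -1.73 with astemizole and -2.41 in the knockdown, outside the bands, and at 0.07 with GSK126.

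Likeness of profile was measured as the Euclidean distance between log2(FPKM + 1) values over the 5 columns, each gene centred on its own mean. HSP90AA1 and STIP1 were the closest pair of members at 0.15, followed by FKBP4 and AHSA1 at 0.16 and HSP90AA1 and AHSA1 at 0.17. FKBP5 was 1.81 to 2.45 away from the other 9, where its median distance to 9353 candidate genes was 2.27. The 5 genes nearest to FKBP5 were CASC5 (distance 0.42), which encodes a kinetochore scaffold, SYCE2 (0.47), a synaptonemal complex gene, NCAPG2 (0.48), a condensin II subunit, KIAA1524 (0.49), whose product inhibits the phosphatase PP2A, and the histone gene HIST2H2AC (0.55). CASC5 stood at 4.46 FPKM with GSK126, 0.862 with astemizole and 6.36 with vehicle, and at 0.384 in the knockdown against 7.27 with scramble shRNA. NCAPG2 stood at 21.8 FPKM with GSK126, 7.69 with astemizole and 31.7 with vehicle, and at 5.81 in the knockdown against 31.6 with scramble shRNA. Both were lower with GSK126 than with vehicle, unlike FKBP5. CASC5 and SYCE2 were below 1 FPKM with astemizole and in the knockdown, and HIST2H2AC was with astemizole. At such levels the added 1 FPKM compresses ratios, so these genes are less like FKBP5 in fold change than their distances show.

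Among other receptors that these chaperones serve, the mineralocorticoid receptor gene NR3C2 was at 3.27 FPKM with GSK126, 3.14 with astemizole and 1.48 with vehicle, and at 3.12 in the knockdown against 0.996 with scramble shRNA. Its log2 ratios were 0.78 (GSK126), 0.74 (astemizole) and 1.05 (knockdown). Only the last was past 2-fold, against 1.93% of all genes higher. With the other control column they were 1.10, 1.05 and 0.73, so which of them pass 2-fold depends on the control. The glucocorticoid receptor gene NR3C1, the progesterone receptor gene PGR and both estrogen receptor genes stayed at or below 0.207 FPKM in all 5 columns.

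Other genes induced by androgen or glucocorticoid were read beside FKBP5; 18 of 19 passed the filter. Their median was 0.32 with GSK126, where 1 gene was past 2-fold on the higher side, against 1.05% of all genes, and 0 on the lower, and the largest ratios were SGK1, a kinase gene, at 1.11, CEBPD at -0.81 and ZBTB16 at 0.78. Against scramble shRNA SGK1 had 0.56 and ZBTB16 0.12, and 0 of the 18 were past 2-fold. The median was -0.46 with astemizole, with 0 genes past 2-fold on the higher side and 3 of 18 on the lower, against 5.49% of all genes (5 of 18 with the scramble column as control): the kallikrein gene KLK2 at -2.10, the kinase gene CAMKK2 at -1.14 and KLK3, which encodes prostate-specific antigen, at -1.12. It was -0.63 in the knockdown, with 0 past 2-fold on the higher side and 4 of 18 on the lower, against 5.11% of all genes, led by CAMKK2 at -1.32, NDRG1 at -1.22 and KLK2 at -1.11. The other was SGK1, on the threshold, at 2.51 FPKM in the knockdown against 6.02 with scramble shRNA, named here after its values were seen. With vehicle as the control NDRG1 had -0.88 and SGK1 -0.44, short of 2-fold. CEBPD (-1.14) and DDIT4 (-1.03) were past it instead, so the count stayed at 4 of 18. The same list had a median of 0.16 between scramble shRNA and vehicle. TSC22D3, which encodes the glucocorticoid-induced protein GILZ and is named here after its values were seen, was at 70.6 FPKM with GSK126, 74.7 with astemizole and 78.4 with vehicle, and at 59.6 in the knockdown against 67.4 with scramble shRNA.

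The other HSP90 cochaperones had medians nearer 0 than the members did with both drugs. These 22 genes had medians of -0.15 with GSK126, -0.32 with astemizole and -0.10 in the knockdown, and 1 value in these 3 comparisons reached 2-fold, FNIP1 with astemizole at 1.01, against 3.53% of all genes at least 2-fold higher there. Against scramble shRNA FNIP1 had 0.61, and no gene of the list reached 2-fold with either drug. FNIP1, which slows the HSP90 ATPase, had 0.76 with GSK126, and its relative FNIP2 0.79. STUB1, the ubiquitin ligase CHIP that acts on HSP70 and HSP90 clients, had -0.74 with GSK126. CHORDC1 (-0.92) and PIH1D1 (-0.87) were lowest with astemizole, and FKBPL (-0.81) and TOMM34 (-0.74) in the knockdown, where CDC37L1 had 0.68; with vehicle as the control FKBPL had -1.20, past 2-fold, and no other gene of the list was. The HSP90 genes of other compartments, HSP90B1 of the endoplasmic reticulum and TRAP1 of mitochondria, had -0.02 and -0.45 with GSK126, -1.18 and -1.003 with astemizole, and -0.01 and -0.58 in the knockdown. Against scramble shRNA the astemizole values were -0.78 and -0.81, short of 2-fold, and HSP90B1 had 0.39 with GSK126.

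HSP70, HSP40 and BAG genes, 20 measured of 23, had medians of -0.18 with GSK126, -0.19 with astemizole and 0.11 in the knockdown. In the first, HSPBP1 (-0.53), HSPA14 (-0.52) and BAG3 (-0.40) had the largest ratios, and no gene of the list reached 2-fold. With astemizole the strictly inducible HSP70 gene HSPA6 stood at 12.6 FPKM against 0.327 with vehicle, a log2 ratio of 3.35, the only gene of the list past 2-fold, against 3.53% of all genes higher; DNAJB2 had 0.70 (1.09 against scramble shRNA) and HSPA4L -0.64. In the knockdown DNAJB4 was at 20.01 FPKM against 6.57 with scramble shRNA (1.47), the only one past 2-fold, against 1.93% of all genes higher, and BAG2 had 0.90 and DNAJB6 0.82. HSPA1A and HSPA1B, near-identical copies between which reads cannot be assigned with certainty, were listed at 0.0734 FPKM or less in every column.

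Heat shock factors and other HSF1 targets, 10 genes, had medians of -0.25 with GSK126, -0.09 with astemizole and 0.26 in the knockdown. The small chaperone gene HSPB1 was at 653 FPKM with GSK126 against 1140 with vehicle (-0.80), while the mitochondrial chaperonin genes HSPE1 and HSPD1 had -0.57 and -0.51. Against scramble shRNA the GSK126 values were -0.32 for HSPB1, -0.09 for HSPE1 and -0.33 for HSPD1, while CRYAB had 1.10, past 2-fold. With astemizole CRYAB was at 13.9 FPKM against 4.04 with vehicle (1.56) and was 1 of 2 genes of this list at least 2-fold higher, against 3.53% of all genes, the other being HSPB8 at 4.60 FPKM against 0.315 (2.09), named here after its values were seen; HSPD1 had -0.73 and HSF2 -0.60. Among genes at 5 FPKM or more, HSPE1 was at 483 FPKM in the knockdown against 306 with scramble shRNA (0.66), followed by SERPINH1 at 0.49 and HSPB1 at 0.38; HSPB8, below that level, had 0.80. With the other control column the list medians turned to 0.24 with astemizole and -0.07 in the knockdown, where HSPB1 had -0.10. HSPA6 and CRYAB were higher with astemizole, in the library in which both cytosolic HSP90 genes and DNAJA1 were lower. They do not stand for their lists. Against vehicle, 13 of 20 HSP70, HSP40 and BAG genes and 5 of 10 genes of this list were below 0, against 55.3% of all genes. HSF1 itself was at 47.2 FPKM with GSK126, 56.4 with astemizole and 51.8 with vehicle, and at 38.1 in the knockdown against 45.6 with scramble shRNA.

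The 10 other FKBP genes had medians of -0.12 with GSK126, -0.27 with astemizole and -0.08 in the knockdown. A single value reached 2-fold, FKBP11, a secretory pathway isomerase gene, at 26.0 FPKM in the knockdown against 68.1 with scramble shRNA (-1.36), where 5.11% of all genes were at least 2-fold lower. With GSK126 FKBP11 had -0.58, FKBP3 -0.44 and FKBP2 -0.39; against scramble shRNA FKBP3 and FKBP2 turned to 0.07 and 0.12 and the list median to 0.09. With astemizole FKBP14 had -0.65, FKBP3 -0.64 and FKBP1A -0.46, and in the knockdown FKBP2 had -0.56 and FKBP3 0.46, which were -1.07 and -0.04 with vehicle as the control.

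**Figure D5:**
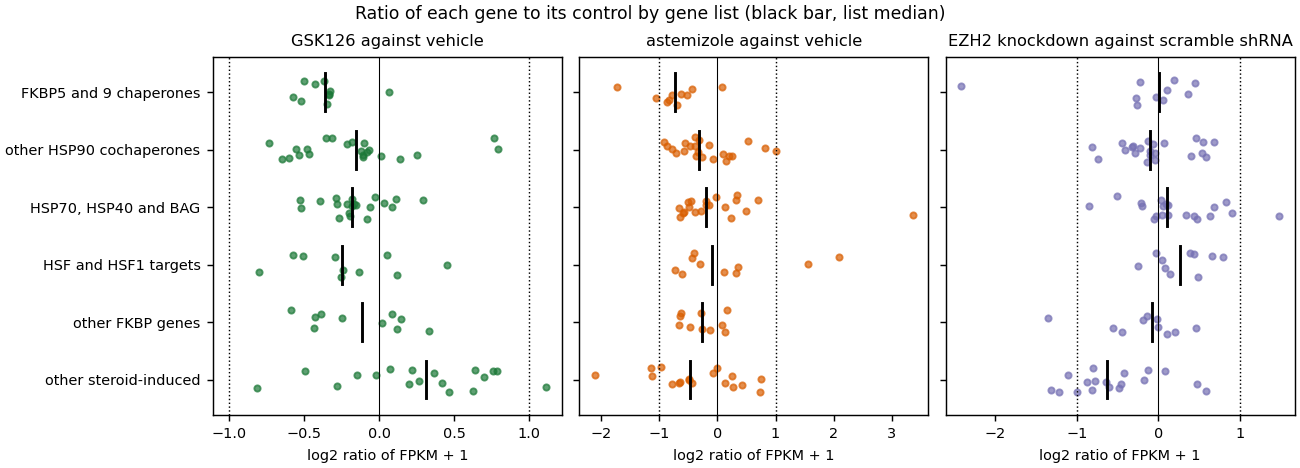
Log2 ratio of FPKM + 1 (horizontal axes, different ranges) of each measured gene, by list, in the 3 comparisons; black bars are list medians and dotted lines mark 2-fold. FKBP5 is the leftmost point of the top row with astemizole (-1.73) and in the knockdown (-2.41), and the bottom row of other steroid-induced genes has medians of 0.32, -0.46 and -0.63.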

How the data were processed

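Polyadenylated RNA of 6 libraries was sequenced, and the values come as 1 table of 5 columns. They are FPKM made by the authors, per the labels; TopHat2, Cuffdiff and hg19 are listed, without versions, in the submitters' processing notes. For gene annotation, filters, strand handling and the merging of the 2 hairpin libraries into 1 column, no account is given in the sources used here. Left out were 27 date-like names and 1726 short RNA names. A gene was kept if any column reached 1 FPKM (12921 genes), and ratios were log2 of FPKM + 1, which understates differences of low genes. Depth in reads is unknown, so no counting interval is given, and 1 value per condition allows no test. Values of the lists against the other control column, and the centred range between the control columns, were added after seeing the data. Python 3.11.15, pandas 2.3.3 and numpy 2.4.6 were used. Members and lists were chosen with earlier results of these data known. In lists, the 3 largest ratios at 5 FPKM or more in 1 of the columns compared and above 0 in both were named; likeness used genes at 5 FPKM or more with a known symbol and no 0. The values of 1 gene of the receptor list are not reported here.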

Additional observations from a re-analysis of the deposited data

How the results depend on the processing

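Dropping the filter, or setting it at 10 FPKM (chosen after seeing the data), could not change the 30 member ratios. Each uses only the gene's own values, and every member reached 10 FPKM. The 30 ratios stayed on their side of 2-fold with a pseudocount of 0.1 FPKM and with TPM rescaling. With centring on the median of all genes, and with the other control column, 29 did; PTGES3 with astemizole was the exception, at -0.99 and -0.76, so 1 member was past 2-fold there under both. The other control column changed the sign of 4 ratios. The median of the members in the knockdown, 0.0088, was -0.023 after TPM rescaling, -0.020 after centring and -0.038 against vehicle. The share of all genes at 2-fold or more was 4.69% (GSK126), 13.7% (astemizole) and 11.5% (knockdown) with the smaller pseudocount, and 0.968%, 4.36% and 3.40% with no filter. Among those genes the higher ones were 52.5% with GSK126, against 61.1% with the smaller pseudocount, 80.3% after TPM rescaling, 79.4% against scramble shRNA and 42.3% with the filter at 10 FPKM; with astemizole they were 39.1%, against 54.0% with the scramble column. The FKBP5 to FKBP4 ratios from FPKM + 1 were 0.528 with GSK126, 0.190 with astemizole and 0.356 with vehicle, and 0.0800 in the knockdown against 0.549 with scramble shRNA. The causes were not tested. No paired analysis was possible because each condition has 1 column and no numbers are shared between groups, and no replicate could be left out.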
